A study of Mus musculus with 31 samples.

Results

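Rab GTPases are small proteins that switch between a GTP-bound active form and a GDP-bound inactive form, and each marks a particular membrane of the cell. Exchange factors load them with GTP on that membrane, effectors read the active form to tether, move or fuse vesicles, and GTPase-activating proteins switch them off. In neurons the Rab3 proteins sit on synaptic vesicles and the Rab3 and Rab27 proteins take part in the release of dense-core vesicles, which hold peptides. The genes described here are the 57 whose symbol is Rab followed by a number and at most 1 letter from a to d, out of 20784 genes in the authors' normalized table. Their raw counts were read in every library by Ensembl identifier.

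The libraries came from 18 lateral olivocochlear (LOC) and 13 medial olivocochlear (MOC) neurons of the mouse brainstem, the cholinergic cells that send axons to the cochlea. LOC cells were recorded in the lateral superior olive and MOC cells in the ventral nucleus of the trapezoid body, in acute slices. All mice carried Cre behind the choline acetyltransferase gene (ChAT-IRES-Cre) and a tdTomato reporter, so that red cells were chosen by cholinergic Cre activity, while the sample labels call the genotype wild-type. Both groups had patch-clamp recording before the cytoplasm was drawn into the pipette, and no age is given in the sources used here. Each library is 1 cell and no animal is named for any cell. Each group therefore counts as 1 sample, no difference was tested, and every SD below is a spread between cells.

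Counts per library were 792100 ± 252420 in LOC (mean ± SD, n = 18 cells, range 356412 to 1404896) and 1048959 ± 535576 in MOC (n = 13 cells, range 598028 to 2627174). CPM below means reads of a gene per 1000000 reads of the library, and the CPM of a group is that of its summed counts, so that a deep or high cell weighs more in it. At least 10 reads over the cholinergic genes Chat, Slc18a3 and Slc5a7 were found in 14 LOC and 8 MOC libraries. LOC cells 14 and 16 and MOC cell 8 had 0 such reads, and LOC cells 7 and 9 had 5 and 4. MOC cells 4, 9, 12 and 13 had 3, 6, 9 and 1. The 9 microglial markers summed to between 31.1 and 2001 CPM per LOC cell (median 170) and between 40.7 and 9448 CPM per MOC cell (median 577). None of these 9 markers met the size rule defined below in LOC, 5 met it in MOC (among them Csf1r, C1qb, Ctss and Cx3cr1), and none was at 0 in either group. The 9 oligodendrocyte markers took up to 23.8% of the counts of a LOC cell (median 3.18%) and up to 12.2% of those of a MOC cell (median 4.32%). The part of these other cell types in the Rab values was not tested, apart from the values given without the libraries concerned.

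Rab3 paralogs are alike in sequence, and the Rab3 values below depend on reads being assigned to the right one. The coding sequences of the 4 Rab3 genes were 69.1% to 74.5% identical in pairs, and the longest identical stretch was 33 bases, between Rab3b and Rab3d. No stretch of 75 bases, the length of a read, was shared between the annotated transcripts of any pair of the 57 Rab genes. Some were shared with genes outside the 57, as for 6.99% of the stretches of Rab3b and 0.753% of those of Rab3c. The share was 0% for Rab3a and Rab3d. It was 11.9% for Rab11b (mostly with Rab11b-ps2), 10.2% for Rab7 (mostly with Rab7-ps1), 4.40% for Rab8b and up to 74.2%, for Rab43. The following 60 coding bases, from GENCODE M21 on GRCm38, are the stretch within a single exon where the 4 genes are most alike, and they are shown to let the reader see what a read had to distinguish. Capitals mark bases that differ from Rab3a. The stretch lies at chr8:70756474-70756533 on the plus strand for Rab3a, chr4:108923933-108923992 on the plus strand for Rab3b, chr13:110181011-110181070 on the minus strand for Rab3c and chr9:21914895-21914954 on the minus strand for Rab3d.
Rab3a: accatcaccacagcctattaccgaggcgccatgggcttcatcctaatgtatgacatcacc
Rab3b: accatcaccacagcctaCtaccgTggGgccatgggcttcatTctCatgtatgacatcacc
Rab3c: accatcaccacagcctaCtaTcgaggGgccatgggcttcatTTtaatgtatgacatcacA
Rab3d: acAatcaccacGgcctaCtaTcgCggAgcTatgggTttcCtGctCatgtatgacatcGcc
Even here Rab3b differs from Rab3a at 5 bases, Rab3c at 6 and Rab3d at 12. The sources used here do not give how reads that fit several genes were handled.

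Rab transcripts made up 0.372% of all LOC counts and 0.430% of all MOC counts. A LOC cell had reads of 28 to 51 of the 57 genes (median 37) and a MOC cell of 31 to 51 (median 42). The summed Rab level per cell ran from 2279 to 5646 CPM in LOC (median 3458) and from 2658 to 7198 CPM in MOC (median 4314), so the ranges overlapped widely. In LOC, 15 Rab genes reached 100 CPM and 17 stayed under 10 CPM, against 13 and 14 in MOC. Reads were present in every cell for 11 genes in LOC and for 14 in MOC. A count of 0 in a single cell allows a level of up to 2.14 to 8.42 CPM in LOC and 1.14 to 5.02 CPM in MOC, taking 3 reads as the limit.

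**Figure D1:**
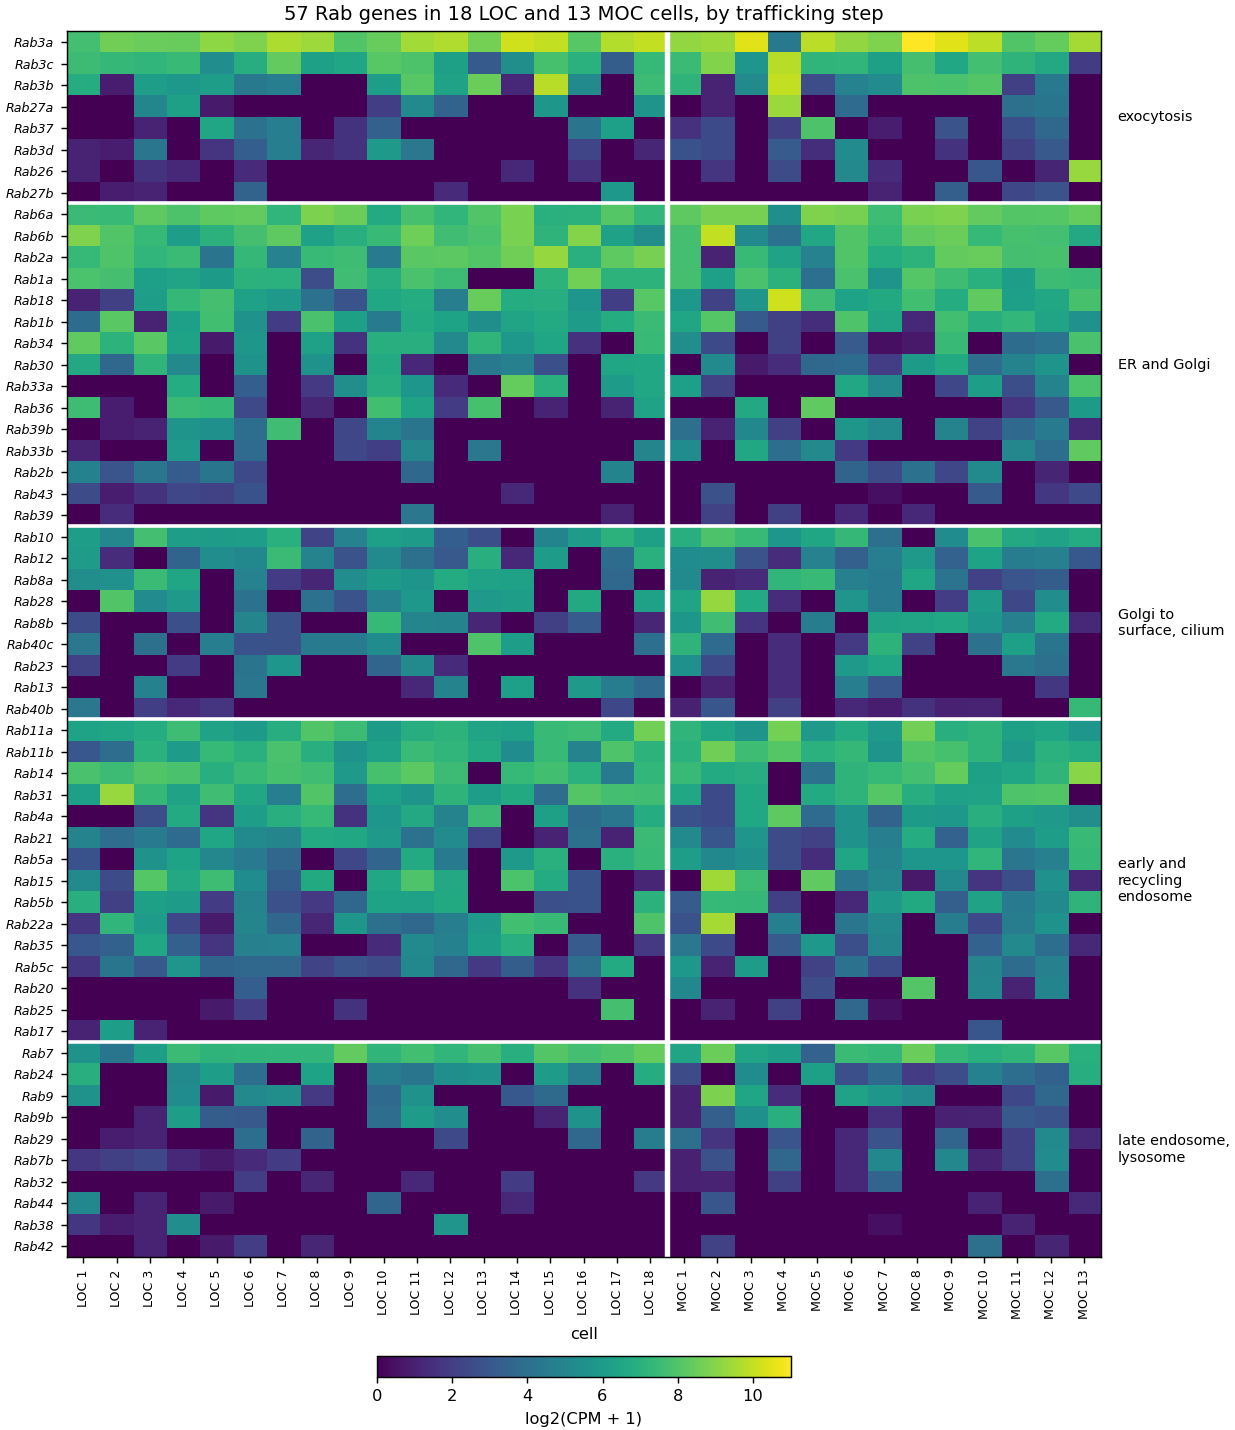
Level of each of the 57 Rab genes (rows, grouped by trafficking step) in each of the 18 LOC cells (left of the white line) and 13 MOC cells (right), as log2(CPM + 1) by colour. Rab3a was read in all 31 cells, and many genes of the lower rows of each block were read in few cells.

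Rab3a, the main Rab of synaptic vesicles, was the most abundant Rab transcript per length in both groups. It lies on chromosome 8 (70754679 to 70758677, plus strand, GRCm38, ENSMUSG00000031840). Its level ran from 211 CPM through a median of 516 to 1170 CPM in LOC cells, and from 20.9 through 648 to 2111 CPM in MOC cells. The lowest MOC value was that of MOC cell 4 and the highest that of MOC cell 8, the library highest in microglial markers. The highest LOC value was that of LOC cell 14, which like MOC cell 8 had 0 cholinergic reads. The LOC range lay wholly inside the MOC range. The summed counts gave 594 CPM in LOC (95% Poisson interval 581 to 607) against 863 CPM in MOC (847 to 878), and 714 CPM in MOC without MOC cell 8. These intervals cover counting error only, since the reads carry no molecular identifiers. On the log2(CPM + 1) scale the mean over LOC cells was 9.04 ± 0.75 and that over MOC cells 9.14 ± 1.65, a difference of -0.11 (LOC minus MOC) that is smaller than the spread between cells.

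Per kilobase of exon, Rab3a had 267 CPM in LOC against 388 CPM in MOC, which was 23.1% of the summed Rab level per kilobase in LOC and 29.2% in MOC. It was the highest of all 57 Rab genes per kilobase in 16 of 18 LOC and 12 of 13 MOC cells. The exceptions were LOC cell 1, led by Rab34, LOC cell 9, led by Rab7, and MOC cell 4, led by Rab3b. Next in order came Rab2a (108 CPM per kilobase), Rab6a (65.9), Rab7 (63.0) and Rab1b (49.0) in LOC. In MOC the order was Rab6a (88.9), Rab2a (76.0), Rab7 (66.8) and Rab6b (47.7). The order below Rab3a rests on neighbouring levels that differ by less than the spread between cells, and it depends on the length used. Per kilobase of the longest coding transcript, Rab34 (60.1) and Rab11a (58.4) passed Rab1b (58.2) in LOC. In MOC, Rab7 (80.7) then passed Rab2a (76.0). Rab11a (57.4), Rab14 (53.4), Rab1a (52.5) and Rab1b (50.6) passed Rab6b (48.0) there. Rab3a stayed first in both groups, at 382 in LOC and 554 in MOC.

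**Figure D2:**
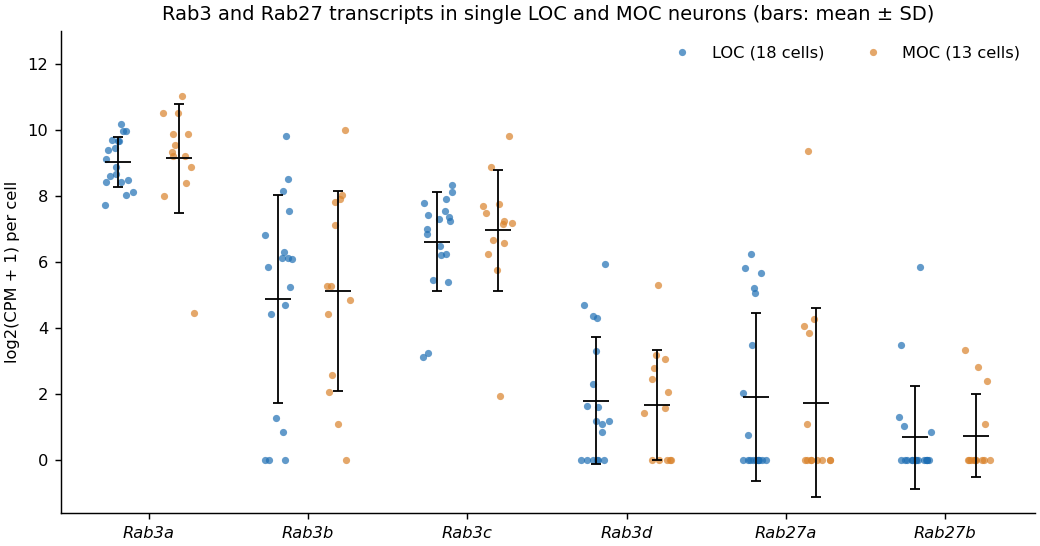
Level of the Rab3 and Rab27 genes per cell as log2(CPM + 1), with 18 LOC cells in blue and 13 MOC cells in orange, and bars for the mean ± SD over cells. Rab3a lay high in nearly all cells, Rab3b was spread from 0 to about the level of Rab3a, and for each of Rab27a and Rab27b most cells had no read.

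Rab3b and Rab3c, close relatives of Rab3a on regulated secretory vesicles, differed in how evenly they were spread over cells. Rab3b ran from 0 through 62.5 to 907 CPM in LOC cells and from 0 through 37.7 to 1025 CPM in MOC cells. The highest cells were LOC cell 15, with 43.5% of the LOC counts, and MOC cell 4, with 35.7% of the MOC counts. Rab3b was read in 15 of 18 LOC and 12 of 13 MOC cells, with at least 5 reads in 13 LOC and 9 MOC cells. Its summed level was 136 CPM in LOC (130 to 142) against 131 CPM in MOC (125 to 137), or 82.0 CPM in LOC without LOC cell 15. The log2(CPM + 1) means were 4.89 ± 3.15 for LOC and 5.12 ± 3.03 for MOC, a difference of -0.23.

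Rab3c was read in every cell. It ran from 7.78 through 139 to 323 CPM in LOC cells and from 2.88 through 144 to 897 CPM in MOC cells, again with the highest value in MOC cell 4. The LOC range again lay inside the MOC range. The summed level was 129 CPM in LOC (123 to 135) against 180 CPM in MOC (173 to 187); the log2(CPM + 1) means of 6.62 ± 1.499 in LOC cells and 6.96 ± 1.84 in MOC cells differed by -0.34. Rab3c is long in exon sequence, so per kilobase it had only 10.7 CPM in LOC against 14.9 CPM in MOC, below the 38.5 and 37.2 CPM of Rab3b. In single cells that order was not steady, since Rab3b exceeded Rab3c per kilobase in 9 of 18 LOC and 7 of 13 MOC cells.

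Rab3d, known from the secretory granules of gland cells, was low. It ran from 0 through 1.27 to 61.2 CPM in LOC cells and from 0 through 2.02 to 38.9 CPM in MOC cells. Reads occurred in 12 of 18 LOC and 8 of 13 MOC cells, 5 LOC and 4 MOC cells having 5 or more reads. Its summed level was 6.80 CPM in LOC against 4.11 CPM in MOC, or 4.26 CPM in LOC without LOC cell 10 and 2.09 CPM in MOC without MOC cell 6. On the log2(CPM + 1) scale the means of 1.81 ± 1.92 and 1.68 ± 1.67 differed by 0.13. Rab3c exceeded Rab3d per kilobase in all 18 LOC and all 13 MOC cells.

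Within each cell, Rab3a took a median of 88.6% of the Rab3 level per kilobase in LOC (range 62.2% to 99.8%) and 90.01% in MOC (2.49% to 99.9%). It was the highest Rab3 gene in 18 of 18 LOC and 12 of 13 MOC cells. LOC cells 13 and 15 had the largest Rab3b shares in LOC, at 36.1% and 35.3%. MOC cell 4 was the single cell led by another Rab3 gene, with 77.2% of the Rab3 level per kilobase in Rab3b. That library held 13 reads of Rab3a against 638 of Rab3b, 558 of Rab3c and 408 of Rab27a. It had 3 reads over the cholinergic genes, and 884 CPM over the markers of inhibitory neurons (Gad1, Gad2, Slc32a1 and Slc6a5), against a MOC median of 281 CPM. MOC cells 8 and 9 were higher still over these markers, at 2990 and 1342 CPM. They were led by Rab3a, with Rab3b at 241 and 227 CPM (MOC median 37.7 CPM). In LOC these markers were highest in LOC cell 13, at 949 CPM. LOC cell 10 had 843 CPM with a Rab3b share of 9.28%. LOC cells 7 and 8 had 713 and 658 CPM with Rab3b shares of 1.77% and 0%, while LOC cell 15 had 402 CPM. MOC cell 10, at 234 CPM over these markers, had Rab3b at 264 CPM. A link between these markers and Rab3b was not tested.

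**Figure D3:**
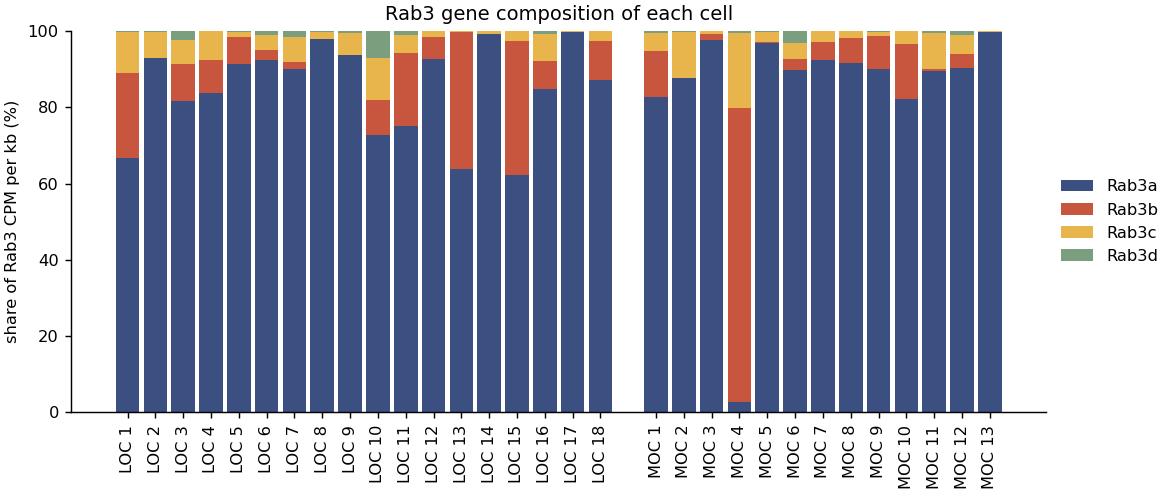
Share of the summed Rab3 level (CPM per kilobase of exon, in %) held by each of the 4 Rab3 genes in each cell, with 18 LOC cells on the left and 13 MOC cells on the right. Rab3a held at least 62.2% in every LOC cell, and MOC cell 4 is the one bar led by Rab3b.

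Rab27a and Rab27b, the Rab genes of melanosomes, lytic granules and dense-core vesicles, had no read in many cells. Rab27a was read in 8 LOC and 5 MOC cells, Rab27b in 5 LOC and 4 MOC cells, and the medians were 0 for both genes in both groups. Either gene was present in 11 LOC and 7 MOC cells, and both in 2 LOC and 2 MOC cells. Rab27a reached 74.6 CPM at most in LOC (LOC cell 4) and 656 CPM in MOC (MOC cell 4). Its summed level was 15.1 CPM in LOC (13.1 to 17.2) against 32.9 CPM in MOC (30.0 to 36.1). MOC cell 4 held 90.9% of the MOC counts, and the MOC level without that cell was 3.15 CPM. The means of 1.91 ± 2.54 in LOC and 1.74 ± 2.87 in MOC differed by 0.17, and by 0.80 without MOC cell 4. The direction of Rab27a thus depends on the cells and the measure taken. By summed counts it met the size rule in MOC (a log2 ratio of -1.13), and in the libraries with at least 10 cholinergic reads, which leave out MOC cell 4, it met it in LOC (a difference of 1.33). Rab27b had 4.49 CPM in LOC (3.46 to 5.73), of which LOC cell 17 held 84.4%, against 1.54 CPM in MOC (0.953 to 2.35). Without LOC cell 17 the LOC level was 0.751 CPM. The means of Rab27b were 0.70 ± 1.56 in LOC and 0.74 ± 1.25 in MOC, with a difference of -0.05.

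The comparison of the groups used a rule of size, since no test was possible. Genes with reads in 25% or more of the LOC cells or of the MOC cells were taken as measured. To meet the rule in LOC, a gene needed a summed CPM 2 or more times its MOC value, a mean log2(CPM + 1) exceeding the MOC mean by 1 or more, and reads in 25% or more of the LOC cells, and likewise for MOC. Every difference given below is that of the mean log2(CPM + 1) over cells, LOC minus MOC, and it can run opposite to the summed levels where a few cells are very high. Of all 17754 measured genes, 6.07% met the rule in LOC, 5.67% in MOC and 11.7% in either. Among the Rab genes 55 were measured, all but Rab17 and Rab42. Of these, 3 met it in LOC (Rab34, Rab36 and Rab13) and 5 in MOC (Rab8b, Rab20, Rab7b, Rab33b and Rab26), which is 14.5% in either direction and near the share of all genes. The median difference over the 55 genes was -0.08, against -0.07 over all measured genes. Of the 55 differences 23 were above 0 and 32 below, and 27 lay within 0.5 of 0. For the 15 Rab genes of at least 100 CPM in a group the median was 0.15, and of these Rab34 alone met the rule.

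**Figure D4:**
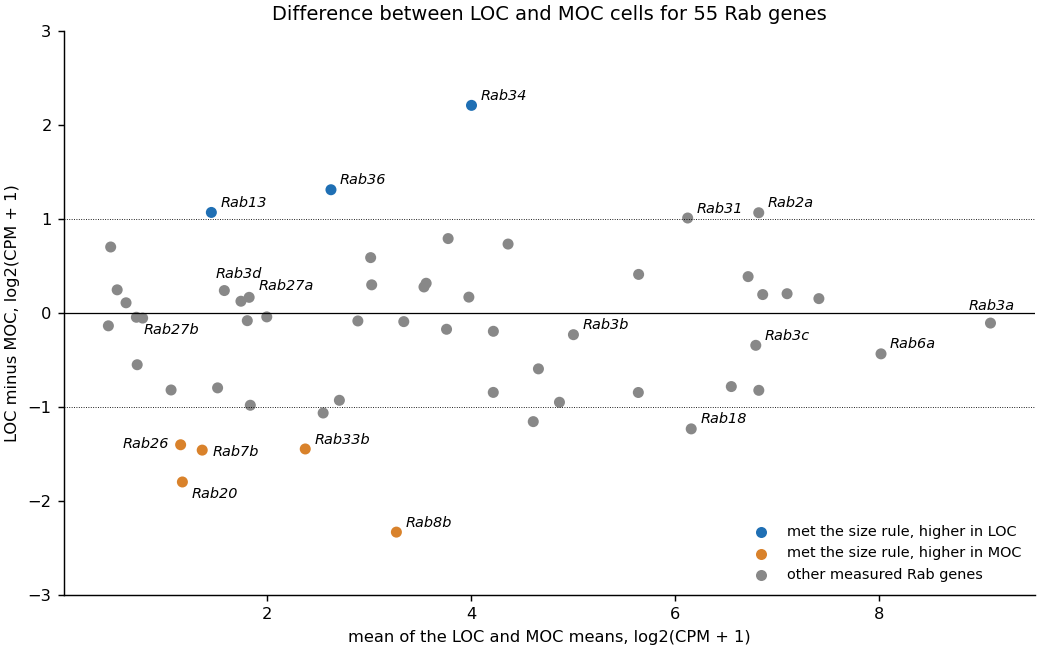
Difference of the mean log2(CPM + 1) between groups (LOC minus MOC, vertical) against the mean level (horizontal) for the 55 measured Rab genes, with the lines at 1 and -1 that the size rule uses. The genes that met the rule, in blue for LOC and orange for MOC, lie at mean levels of about 4 or less, and Rab3a lies at -0.11. Rab2a, Rab31, Rab18 and the other grey points beyond a line had summed levels less than 2 times apart.

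Rab34, a Golgi-linked Rab that positions lysosomes and takes part in cilium formation, was higher in LOC. It lies on chromosome 11 (78188430 to 78192193, plus strand, GRCm38, ENSMUSG00000002059). It ran from 0 through 79.7 to 314 CPM in LOC cells and from 0 through 4.46 to 229 CPM in MOC cells. Most LOC cells were high, 5 were at 2.03 CPM or less, and 2 MOC cells (9 and 13) lay well above the LOC median, so the groups overlapped. Reads of it were found in 88.9% of the LOC cells (16 of 18, exact 95% interval 65.3 to 98.6). The share was 76.9% of the MOC cells (10 of 13, 46.2 to 95.0). Both intervals take the cells as independent draws, do not cover the spread between animals and do not serve to compare the groups. In 13 LOC and 6 MOC cells it had 5 or more reads. The summed level was 101 CPM in LOC (96.2 to 107) against 30.1 CPM in MOC (27.3 to 33.2), a ratio of 3.36, and 19.2 CPM in MOC without MOC cell 9. The means were 5.11 ± 2.89 in LOC and 2.90 ± 2.75 in MOC, and the difference of 2.21 was less than the SD of either group. Rab34 met the rule in all 11 alternatives and with each of the 31 libraries left out. In the libraries with at least 10 cholinergic reads it had 115 CPM in LOC against 7.40 CPM in MOC, a difference of 4.0.

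Rab36, the closest paralog of Rab34, was uneven. It ran from 0 through 2.10 to 220 CPM in LOC cells and from 0 through 0 to 314 CPM in MOC cells. In LOC 7 cells lay above 80 CPM and the others at 4.43 CPM or less, and in MOC 3 cells held nearly all of its reads. It was read in 13 of 18 LOC and 5 of 13 MOC cells, at 66.7 CPM in LOC against 27.1 CPM in MOC (13.96 CPM without MOC cell 5). The means were 3.28 ± 3.32 in LOC and 1.97 ± 3.03 in MOC, and the difference was 1.31. The call ended with a pseudocount of 10 (0.68), with all cells thinned to 300000 counts (0.999), without the libraries of over 10% oligodendrocyte markers (1.24) and without MOC cell 7 (1.15). In the last 2 sets the summed levels fell just short of 2 times apart, at 71.6 CPM in LOC against 36.1 CPM in MOC, and at 66.7 CPM in LOC against 33.6 CPM in MOC. Rab34 and Rab36 are 62.2% identical in coding sequence and share no stretch of 75 bases.

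Rab13, a Rab of cell junctions and recycling, had 12.2 CPM in LOC against 3.01 CPM in MOC. It was read in 8 of 18 LOC cells (highest 72.4 CPM) and 5 of 13 MOC cells (highest 25.5 CPM), with medians of 0 in both. The means of 1.99 ± 2.49 in LOC and 0.92 ± 1.48 in MOC differed by 1.07. Rab13 met the rule in only 4 of the 11 alternatives and in 16 of the 31 sets with a single library left out, the lowest difference there being 0.82 without LOC cell 14. The other cells whose loss ended the call were LOC cells 3, 6, 12, 16, 17 and 18 and MOC cells 1, 3, 5, 8, 9, 10, 11 and 13.

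**Figure D5:**
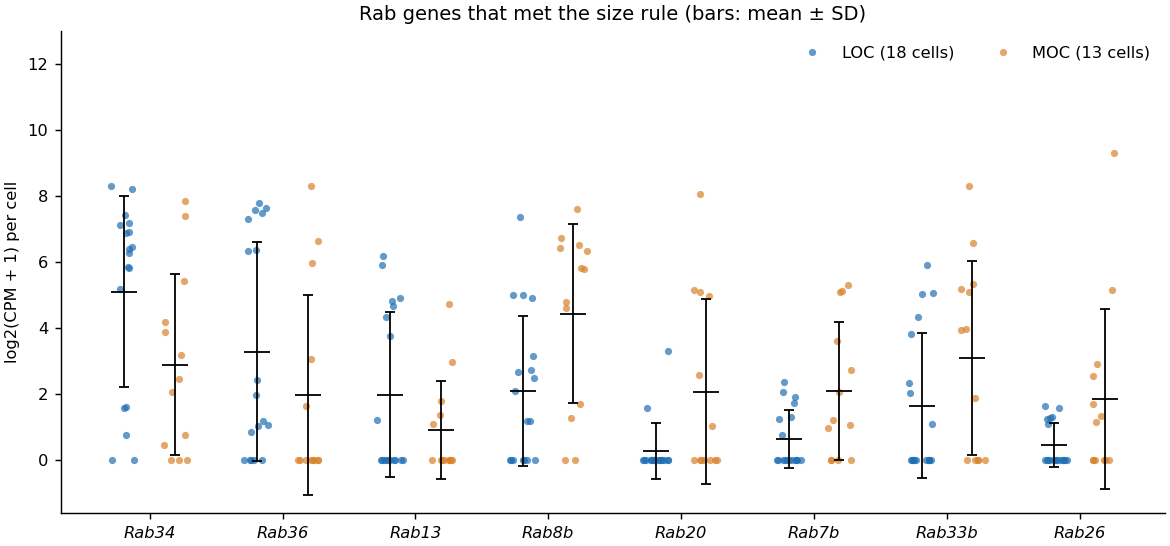
Level per cell, as log2(CPM + 1), of the 8 Rab genes that met the size rule, with 18 LOC cells in blue, 13 MOC cells in orange and bars for the mean ± SD over cells. Rab34 had 5 or more reads in 13 LOC and 6 MOC cells and Rab8b in 4 LOC and 9 MOC cells, whereas most reads of Rab20 and Rab26 came from MOC cells 8 and 13.

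Rab8b, which with its paralog Rab8a carries cargo from the Golgi to the cell surface, had the widest difference toward MOC. It lies on chromosome 9 (66843664 to 66919687, minus strand, GRCm38, ENSMUSG00000036943). It ran from 0 through 2.27 to 165 CPM in LOC cells and from 0 through 54.0 to 195 CPM in MOC cells. LOC cell 10 was the one high LOC cell, with 55.6% of the LOC counts, and 4 MOC cells were at 2.26 CPM or less, so the groups overlapped. It had 5 or more reads in 4 LOC and 9 MOC cells. The summed level was 13.3 CPM in LOC (11.4 to 15.3), or 6.17 CPM without LOC cell 10, against 61.2 CPM in MOC (57.1 to 65.5), 4.61 times the LOC level. The means were 2.10 ± 2.26 in LOC and 4.43 ± 2.71 in MOC, a difference of -2.33. It met the rule in all 11 alternatives and all 31 sets with a single library left out. Without the 3 libraries highest in microglial markers (LOC cell 9, MOC cells 8 and 12) the levels were 13.7 CPM in LOC against 54.9 CPM in MOC, with a difference of -1.82. Rab8a itself had 45.9 CPM in LOC against 35.0 CPM in MOC, a difference of 0.17.

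Rab33b, a Golgi Rab that also binds the autophagy machinery, had 8.63 CPM in LOC against 33.7 CPM in MOC (18.6 CPM without MOC cell 13). It was read in 8 of 18 LOC cells (highest 59.7 CPM) and 8 of 13 MOC cells (highest 315 CPM), with medians of 0 and 14.5 CPM. The means were 1.65 ± 2.19 in LOC and 3.10 ± 2.94 in MOC, and the difference of -1.45 met the rule in 10 of 11 alternatives. A pseudocount of 10 gave -0.78 and ended the call. Its paralog Rab33a had 50.01 CPM in LOC against 36.7 CPM in MOC, a difference of -0.09 by cell means. Gm38160, on the other strand, covers 18.7% of the exonic bases of Rab33b, and the libraries keep no strand.

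Rab7b, which moves cargo from late endosomes to the Golgi, had 0.982 CPM in LOC against 12.6 CPM in MOC (7.54 CPM without MOC cell 7). It was read in 7 of 18 LOC cells, none above 4.18 CPM, and in 9 of 13 MOC cells, up to 39.0 CPM. The means of 0.63 ± 0.88 in LOC and 2.09 ± 2.08 in MOC differed by -1.46. The call ended with a pseudocount of 10 (-0.59) and in the libraries with at least 10 cholinergic reads (-0.97).

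Rab20, a Rab of endosomes and phagosomes, had 0.491 CPM in LOC against 35.2 CPM in MOC. Reads were found in 2 of 18 LOC cells (highest 8.86 CPM) and 6 of 13 MOC cells, of which MOC cell 8 reached 266 CPM and held 80.4% of the MOC counts. The means were 0.27 ± 0.84 in LOC and 2.07 ± 2.80 in MOC, and the difference was -1.80. MOC cells 8 and 12, which were also highest in microglial markers, held 85.6% of its MOC reads against 16.6% of all MOC counts. Without these libraries and LOC cell 9 the levels were 0.508 CPM in LOC against 6.07 CPM in MOC, the difference was -0.97 and the rule was no longer met. It was also not met by medians over cells, with a pseudocount of 10 (-0.84) or with a read required in 50% of the cells. An antisense transcript covers 25.6% of its exonic bases, and the libraries keep no strand.

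Rab26, which in rat neurons directs synaptic vesicles to autophagy, had most of its reads in a single library. It had 0.491 CPM in LOC, with at most 2.09 CPM in a cell, and 35.1 CPM in MOC, of which MOC cell 13 held 91.2% at 629 CPM. Without that cell the MOC level was 3.25 CPM and the difference of -1.40 became -0.78, which does not meet the rule. A pseudocount of 10 gave -0.71 and also ended the call. In the libraries with at least 10 cholinergic reads, which leave out MOC cell 13, Rab26 had 0.410 CPM in LOC against 4.195 CPM in MOC, and the difference of -1.01 met the rule. The means were 0.45 ± 0.67 in LOC and 1.85 ± 2.73 in MOC. Its exons share 267 bases with those of Traf7 on the same strand, so some reads could belong to either gene. Rab37, the last gene of the exocytosis group and one of mast cell granules, had 16.3 CPM in LOC against 12.8 CPM in MOC, a difference of -0.08. LOC cell 5 held 53.9% of its LOC counts and MOC cell 5 held 82.2% of its MOC counts.

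The abundant Rab genes of the secretory route were present in most cells of both groups. Rab2a, which acts between the endoplasmic reticulum and the Golgi, ran from 17.8 through 186 to 615 CPM in LOC cells and from 0 through 171 to 349 CPM in MOC cells. It had 230 CPM in LOC against 162 CPM in MOC, a ratio of 1.42 under the 2 of the rule, although its means of 7.35 ± 1.42 and 6.29 ± 2.73 differed by 1.07. MOC cell 13 had no read of it, and without that cell the difference was 0.54. Rab6a, of retrograde Golgi traffic, ran from 105 through 234 to 455 CPM in LOC cells and from 43.4 through 332 to 471 CPM in MOC cells. It had 245 CPM in LOC against 331 CPM in MOC, and its means of 7.80 ± 0.64 in LOC and 8.24 ± 0.92 in MOC differed by -0.44. Its exons overlap those of Mrpl48 on the other strand over 19.0% of their length. Its neuron-enriched paralog Rab6b ran from 41.6 through 183 to 494 CPM in LOC cells and from 16.1 through 211 to 1014 CPM in MOC cells. The summed levels were 210 CPM in LOC against 240 CPM in MOC, and the means of 7.49 ± 1.02 in LOC and 7.33 ± 1.48 in MOC differed by 0.15. Both Rab6 genes thus had LOC and MOC ranges that overlapped. Rab1b, of transport from the endoplasmic reticulum to the Golgi, ran from 1.05 through 78.6 to 293 CPM in LOC cells and from 1.38 through 85.4 to 276 CPM in MOC cells. It had 111 CPM in LOC against 96.7 CPM in MOC, and the means of 5.85 ± 1.93 in LOC and 5.44 ± 2.54 in MOC differed by 0.41. Its paralog Rab1a had 132 CPM in LOC against 148 CPM in MOC, a difference of -0.78. Rab18, of the endoplasmic reticulum and lipid droplets, had 102 CPM in LOC against 170 CPM in MOC. The means differed by -1.23 while the summed levels were 1.67 times apart, and MOC cell 4 reached 1189 CPM.

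Among the Rab genes of early and recycling endosomes, Rab11a, Rab11b and Rab14 were read in nearly all cells. Rab11a had 136 CPM in LOC against 134 CPM in MOC, a difference of 0.20, and Rab11b had 115 CPM in LOC against 161 CPM in MOC, a difference of -0.82. Rab14 had 168 CPM in LOC against 164 CPM in MOC, a difference of 0.39. Rab31, which acts between the Golgi and endosomes, had 171 CPM in LOC against 137 CPM in MOC. Its difference of 1.01 came with a ratio of only 1.24, and MOC cells 4 and 13 had no read of it. Rab5a, the central Rab of early endosome fusion, ran from 0 through 22.1 to 174 CPM in LOC cells and from 1.67 through 45.3 to 158 CPM in MOC cells. The summed levels of Rab5a were 49.0 and 53.2 CPM and the means differed by -1.16, since 4 LOC cells and no MOC cell lacked a read. Rab5b gave -0.85 and Rab5c 0.59, so the 3 Rab5 genes did not share a direction. Rab4a, of fast recycling, gave -0.95.

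Of the Rab genes of late endosomes, Rab7 was the most abundant. It ran from 18.4 through 152 to 337 CPM in LOC cells and from 10.03 through 145 to 373 CPM in MOC cells. Its summed level was 165 CPM in LOC against 174 CPM in MOC, and the means of 7.20 ± 1.01 and 6.99 ± 1.30 differed by 0.21. Rab9, of transport from late endosomes to the Golgi, had 12.3 CPM in LOC against 59.0 CPM in MOC, a ratio of 4.81 toward MOC. MOC cell 2 held 50.6% of its MOC counts (31.2 CPM without it), and the difference of means was -0.93, short of the rule. Rab23, linked to cilia and Hedgehog signalling, had 5.12 CPM in LOC against 26.6 CPM in MOC, a difference of -0.98, and MOC cell 7 gave 65.0% of its MOC reads (11.5 CPM without it). Rab9 and Rab23 met the rule for MOC on the authors' normalized values, on TMM library sizes, by summed counts, by medians, after thinning and in libraries with at least 10 cholinergic reads.

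Several low Rab genes had wide ratios of summed counts while few cells held their reads. Rab25, an epithelial Rab, had 14.5 CPM in LOC against 0.953 CPM in MOC, and LOC cell 17 held 98.1% of the LOC counts. Rab17, also epithelial, had 6.10 CPM in LOC against 0.440 CPM in MOC, with 97.7% of the LOC counts in LOC cell 2. Rab38, a melanosome Rab, had 4.91 CPM in LOC against 0.147 CPM in MOC, with 51.4% of the LOC counts in LOC cell 12 and 30 of its 70 LOC reads in LOC cell 4. Without LOC cell 12 it still had 2.505 CPM in LOC. Rab44 had 2.74 CPM in LOC against 0.587 CPM in MOC, with 74.4% of the LOC counts in LOC cell 1. Rab32, a Rab of lysosome-related organelles, had 0.561 CPM in LOC against 3.45 CPM in MOC, and 1.63 CPM in MOC without MOC cell 7, which gave 61.7% of its MOC reads. None of these 5 met the rule. The remaining low genes, Rab39, Rab42 and Rab43, stayed under 2 CPM in both groups. Of the exonic bases of Rab43, 75.4% are shared with Gm45140 on the same strand, which had 0 counts. Reads that fit both genes may have been dropped, so a low level of Rab43 cannot be told from lost reads.

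The other Rab genes also missed the rule. On the way from the Golgi to the surface, Rab10 had 63.5 CPM in LOC against 94.4 CPM in MOC, a difference of -0.85, and Rab12 gave -0.20. Rab28, a Rab of cilia, gave -0.17, and Rab40c gave -0.08. Rab40b had 1.96 CPM in LOC against 9.53 CPM in MOC, but MOC cell 13 held 86.9% of the MOC reads. Among Golgi Rab genes, Rab39b gave -1.07 with 15.4 CPM in LOC against 19.4 CPM in MOC, Rab30 gave 0.32 and Rab2b gave 0.24. On the other strand, Gm43766 covers 59.3% of the exonic bases of Rab2b and Gm15063 covers 18.6% of those of Rab39b. Rab39b is known for mutations that cause X-linked intellectual disability in humans. Among endosomal genes, Rab15, a neuron-enriched Rab of recycling, had 93.7 CPM in LOC against 91.8 CPM in MOC, with a difference of 0.73. MOC cell 2 held the most of its MOC reads, and without that cell the MOC level was 49.1 CPM. Rab22a gave 0.79, Rab35 gave 0.30 and Rab21 gave -0.59. Rab24, linked to autophagy, gave 0.28, but 62.4% of its exonic bases overlap Prelid1 on the other strand. Rab9b gave -0.04 and Rab29 gave -0.80, and all of these are differences of means on the log2(CPM + 1) scale.

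By trafficking step the medians lay near that of all genes. The exocytosis list (8 measured genes) had 0 genes higher by the rule in LOC and 1 in MOC, and its median difference was -0.09. The list of the endoplasmic reticulum and Golgi (15) had 2 in LOC and 1 in MOC, with a median of -0.05. The list from Golgi to the surface (9) had 1 in LOC and 1 in MOC (median -0.20). The early and recycling list (15, with Rab4b, which is outside the normalized table) had 0 in LOC and 1 in MOC (median 0.11). The late endosome and lysosome list (9) had 0 in LOC and 1 in MOC (median -0.04). The 5 genes higher in MOC thus fell into 5 different steps. Over all measured genes the shares were 6.07% in LOC and 5.67% in MOC, and each step holds too few genes to compare with them.

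Genes that act on or with Rab proteins were described from lists chosen by function. Of 17 measured effectors of Rab3 and Rab27, such as the active zone proteins Rims1 and Rims2 and rabphilin (Rph3a), none met the rule in either direction, and the median difference was 0.10. Rph3a had 141 CPM in LOC against 153 CPM in MOC, Rims1 had 74.0 CPM in LOC against 99.1 CPM in MOC, and Rims2 had 86.5 CPM in LOC against 107 CPM in MOC. MOC cell 4 held 47.7% of the MOC counts of Rims1. Of 6 measured genes of the shared Rab machinery none met the rule, with a median of -0.10. Among them Rabggtb, a subunit of the enzyme that attaches the lipid anchor of Rab proteins, had 95.0 CPM in LOC against 69.8 CPM in MOC. Over all measured genes 11.7% met the rule in either direction, and lists of 17 and 6 genes are too small to set against this share.

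Of 9 measured regulators of Rab3 and Rab27, 2 were higher in LOC by the rule and 0 in MOC, and the median was 0.15. Over all measured genes 6.07% met it in LOC and 5.67% in MOC, and 9 genes are too few to set against these shares. Madd, the exchange factor of Rab3, had 92.5 CPM in LOC against 45.2 CPM in MOC, read in 17 of 18 LOC and 13 of 13 MOC cells, a difference of 1.03. Tbc1d10a, a GTPase-activating protein of Rab27 and Rab35, had 28.8 CPM in LOC against 7.63 CPM in MOC (2.86 CPM without MOC cell 13), a difference of 1.08. Both lay close to the limit of the rule. Madd met it in 6 of 11 alternatives and 16 of 31 sets with a single library left out, the lowest difference there being 0.75 without MOC cell 10. Tbc1d10a met it in 9 of 11 alternatives and 20 of 31 such sets, the lowest difference there being 0.84 without LOC cell 17.

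Of 22 measured effectors and regulators of other Rab proteins, 2 were higher in MOC by the rule and 0 in LOC, and the median was -0.09. The shares over all measured genes were 5.67% in MOC and 6.07% in LOC, so these counts are not read as a result about the list. Rabgef1, the exchange factor of Rab5 known as Rabex-5, had 8.91 CPM in LOC against 40.2 CPM in MOC, read in 10 of 18 LOC and 11 of 13 MOC cells. Its cells ran from 0 through 1.10 to 47.1 CPM in LOC and from 0 through 19.4 to 151 CPM in MOC, with overlapping ranges and a difference of -2.09. It met the rule in all 11 alternatives and all 31 sets with a single library left out. Without the 3 libraries highest in microglial markers the difference was -1.59. Rin3, another exchange factor of the Rab5 family, had 0.701 CPM in LOC against 14.6 CPM in MOC, and MOC cell 8 held 87.9% of the MOC counts. Its difference of -1.01 became -0.28 without the 3 libraries highest in microglial markers. It met the rule in 14 of 31 sets with a single library left out, the smallest difference there being -0.56 without MOC cell 8.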

How the data were processed

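The authors deposited a table of unnormalized counts with a column for each cell, and a table of normalized signal values (CPM on TMM-adjusted sizes, per the file's own name). The columns of the normalized table sum to between 721736 and 1737008, and each value is the count times a constant of its column, so it served as an alternative scaling. Per the labels' protocols, cDNA was made by Smart-seq2 from aspirated cytoplasm and libraries with Nextera kits, which keep no strand. The submitters' processing notes list STAR 2.5.2, bcl2fastq, limma, edgeR and DESeq2, and the builds GRCm38 and mm10, with no roles, and the counting tool is not known from them.

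CPM used the total over the 55421 mouse gene rows. The 19 other rows held 0.0173% of all counts and were left out. Symbols, coordinates, exon lengths and sequences came from GENCODE M21. Shares of cells have exact Clopper-Pearson intervals and summed counts exact Poisson intervals (95%). Neither covers the spread between animals. In the rule of size, 3 counts over a group were the lowest value. Cells are not replicates of a group, so no test, SE or p-value was made. A log2(CPM + 1) difference understates that of low genes. The text gives full values for every Rab3 and Rab27 gene, each gene that met the rule, the 3 widest in each direction and the 5 highest per kilobase in each group. Other genes are named by role. The members, lists, markers and rules were chosen with earlier results of these data known. The 11 alternatives were TMM sizes from edgeR 4.0.16 (R 4.3.3), the authors' values, summed counts, medians, a pseudocount of 10, 2 filters on low counts, thinning, and 3 choices of libraries. Each of the 31 libraries was also left out in turn. Python 3.11.15 with pandas 2.3.3 and scipy 1.17.1 was used. The steps were tested on simulated data with large changes planted in the more abundant genes only. Low genes and smaller changes were not covered by it. No pair of libraries held identical counts.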

Additional observations from a re-analysis of the deposited data

How the results depend on the processing

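The number of Rab genes that met the size rule in LOC was 3, and 6 by summed counts, 1 with a pseudocount of 10, 1 with cells thinned to 300000 counts and 4 (Rab27a, Rab30, Rab34 and Rab36) in libraries with at least 10 cholinergic reads. The number in MOC was 5, and 8 on the authors' normalized values, 10 by summed counts, 1 with a pseudocount of 10, 8 after thinning and 8 in libraries with at least 10 cholinergic reads. Rab34 and Rab8b were the 2 that met it under all 11 alternatives. Summed counts raise all such numbers, as over all genes 3638 then meet it in LOC and 3648 in MOC, against 1078 and 1007 by cell means, since a single cell can then decide. With a pseudocount of 10, 370 of all 17754 measured genes met it in LOC and 209 in MOC. After thinning 1126 and 1037 of 14221 met it, and on the authors' values 875 and 1172 of 16026. In libraries with at least 10 cholinergic reads 1730 and 1410 of 20420 met it. With single libraries left out the numbers of Rab genes ran from 2 to 4 in LOC and from 5 to 8 in MOC. The median over Rab genes then ran from -0.19 to 0.03.

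Of the Rab3 and Rab27 effectors 0 met the rule, and 5 by summed counts, 1 after thinning, 1 with at least 10 cholinergic reads and 1 with the 3 most microglial libraries left out. Of their regulators 2 met it, and 1 on TMM sizes, 0 by medians, 0 with a pseudocount of 10 and 4 without those 3 libraries. Of the shared machinery 0 met it, and 2 by summed counts and 1 by medians. Of the other effectors 2 met it, and 7 by summed counts, 1 by medians, 1 with a pseudocount of 10, 5 with at least 10 cholinergic reads and 4 without libraries of over 10% oligodendrocyte markers. With single libraries left out these ran from 0 to 1, 0 to 3, 0 to 1 and 1 to 4, and the list medians from -0.11 to 0.25, -0.15 to 0.60, -0.24 to 0.15 and -0.30 to 0.01, in the same order. The cause of these shifts was not tested. Over all genes the rule was met in LOC and MOC by 905 and 1232 of 17754 on TMM sizes, and by 1089 and 1206 by medians. Without the 3 most microglial libraries 1384 and 952 of 18581 met it. Without those of over 10% oligodendrocyte markers 1782 and 990 of 19194 met it.

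For the 23 genes named by the rule, 248 of 253 differences under the alternatives moved by less than the spread between cells. The 5 that moved further were all by summed counts (Rab20 -6.16, Rab26 -6.16, Rab27b 1.54, Rab7b -3.68 and Rin3 -4.38). Those are log2 ratios without a pseudocount, a measure unlike the differences of means. The 253 include those under the 2 filters on low counts, which change only the genes that can meet the rule. No difference could move under these filters. A move smaller than the spread could still end a call, as by medians for Rab13 (1.07 to 0) and Rab20 (-1.80 to 0). All 713 values with a library left out stayed within the spread. Leaving out a single cell can move a group mean by only a fraction of the SD of that group. This count was therefore fixed in advance and does not bear on how steady the calls are. In the same sets the call was kept in 16 of 31 for Rab13, 16 of 31 for Madd and 14 of 31 for Rin3. Depth limits the low genes, where 3 counts correspond to up to 8.42 CPM in a cell. No paired analysis was possible because each library is a single cell, the replicate numbers only name cells, and no result comes from a test.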
